A study of Mus musculus with 8 samples.

Results

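Chemokines and their receptors were examined in lactating mammary glands with and without the transcription factor Th-POK. Genes were taken by symbol: every gene named Ccl, Cxcl, Ccr or Cxcr followed by a digit, every gene whose name starts with Cx3c, and the Xcl1 and Xcr1 genes. The gene table held 63 such genes, of which 53 had a probe on the array, among 18749 genes with a probe in all. These 53 were 34 ligand genes and 19 receptor genes, read by 67 probes. The glands were No. 4 mammary glands of C57/Bl6 female mice at lactation day 1, from 4 wild-type (WT) dams and 4 Th-POK knockout (KO) dams, hybridised 1 dam to an array on one-colour Agilent arrays. Th-POK is encoded by Zbtb7b, and the sources name no driver that would limit its loss to the mammary epithelium, so the leukocytes of the KO dams are without it as well. The labels give no age and name no further allele or treatment, and the methods describe the females as age matched. The genotypes were hybridised on separate slides, 1 for WT and 1 for KO, and for no comparison given here can genotype and slide be told apart.

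Chemokines are small secreted proteins that bind G protein-coupled receptors on leukocytes and direct where those cells move. They are named by the spacing of their first cysteines (CC, CXC, CX3C and C), and most ligands are shared among several receptors and most receptors among several ligands. In the mammary gland they bring macrophages and eosinophils to growing ducts, IgA-secreting plasma cells to the lactating epithelium, and neutrophils and macrophages to the gland when milk stasis or infection occurs.

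The stretches of promoter below belong to the 3 genes of the family that passed the test described below (Cxcl1, Cxcl12 and Ccl17) and to Cxcl2 and Cxcl3, the close relatives of Cxcl1 that lie near it on the same chromosome. Each is the 150 bases before the RefSeq transcription start (GRCm38.p6). Capitals mark matches, on either strand, to a kappaB-like motif (GGNNNTTCC) or to a STAT-like motif (TTCNNNGAA).
Cxcl1 (chr5:90891095-90891244, + strand): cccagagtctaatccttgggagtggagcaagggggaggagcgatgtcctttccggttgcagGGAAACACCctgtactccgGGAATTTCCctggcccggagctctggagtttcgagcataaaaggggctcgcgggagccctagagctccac
Cxcl2 (chr5:90903749-90903898, + strand): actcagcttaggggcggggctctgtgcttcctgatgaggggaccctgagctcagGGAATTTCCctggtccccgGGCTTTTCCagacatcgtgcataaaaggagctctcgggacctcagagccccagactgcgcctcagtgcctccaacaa
Cxcl3 (chr5:90785951-90786100, + strand): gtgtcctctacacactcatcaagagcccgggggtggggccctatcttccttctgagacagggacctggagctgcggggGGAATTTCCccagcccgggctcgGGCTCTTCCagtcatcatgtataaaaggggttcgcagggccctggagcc
Cxcl12 (chr6:117168385-117168534, + strand): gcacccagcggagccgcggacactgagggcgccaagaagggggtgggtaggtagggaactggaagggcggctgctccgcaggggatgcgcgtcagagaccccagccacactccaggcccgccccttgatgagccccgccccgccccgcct
Ccl17 (chr8:94810303-94810452, + strand): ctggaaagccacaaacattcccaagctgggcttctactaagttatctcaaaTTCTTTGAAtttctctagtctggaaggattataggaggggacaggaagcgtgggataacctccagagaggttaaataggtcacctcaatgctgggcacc

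The Cxcl1, Cxcl2 and Cxcl3 promoters shared the run GGAATTTCC, which began 70, 96 and 72 bases before the start in that order. Each of them held a second kappaB-like match nearby. GGAATTTCC was found in 62 of 32851 promoters (0.189%), and the looser GGNNNTTCC in 3377 (10.3%). Of the 29 tested chemokine and receptor genes with a promoter in the table, 8 held GGNNNTTCC (Ccl9, Ccl12, Ccl20, Ccr6, Cx3cl1, Cxcl1, Cxcl9 and Cxcl10) and only Cxcl1 held GGAATTTCC. The STAT-like motif was found in 4.09% of all promoters and in the Ccl17 and Ccr6 promoters among the 29, and the Cxcl12 window held neither motif. A match of letters is a description of the window and shows no binding.

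Signals are given as log2 of the quantile-normalized processed intensity, and a difference is KO minus WT on that scale. A probe was tested when, in one genotype or in both, the scanner software called it well above background on each of the 4 arrays. By this rule 39 of the 53 genes were tested (28 ligands and 11 receptors), among 14137 genes in all. Of the 39, 38 were well above background on every WT array, 38 on every KO array and 37 on all 8. The exceptions were Ccl20, detected on 3 of 4 WT arrays, and Ccl28, detected on 2 of 4 KO arrays. Ligand genes passed this rule in 28 of 34 cases and receptor genes in 11 of 19.

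Zbtb7b itself read 9.90, 10.42, 10.13 and 10.23 on the WT arrays and 1.55, 1.56, 1.65 and 1.60 on the KO arrays, where its probe was never well above background. Its KO signal was lower by a factor of at least 81.5 (limma, adjusted p = 5.71e-09). Milk and luminal epithelial genes, which define the labelled tissue, were well above background on every array. The mean of 7 of them (Csn2, Wap and Lalba included) ranged from 15.94 to 16.09 in WT and from 16.06 to 16.20 in KO glands. Single genes of the 7 moved both ways. Krt18 (0.67, limma, adjusted p = 0.0349) and Epcam (0.52, adjusted p = 0.0403, and 0.0598 with replicate number as a block) were higher in KO glands. Of all genes tested 7.53% were called higher. Elf5 differed by -0.35 (adjusted p = 0.107) and Lalba by -0.45 (adjusted p = 0.197, and 0.0444 with the block). The share of probes well above background was 66.8% to 75.3% per array, and the 8 arrays correlated pairwise at r = 0.968 to 0.989 over all probes.

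Few chemokine genes passed the test for a difference between the genotypes. At an adjusted p under 0.05 (limma, Benjamini-Hochberg over all 14137 genes), 2 of the 39 genes rose in the KO glands (Cxcl1 and Cxcl12) and 1 fell (Ccl17). That is 7.69% of the 39, against 16.5% of all genes tested in either direction, 7.53% higher and 8.96% lower. The WT and KO arrays did not overlap for 4 of the 39 genes, 10.3%, against 24.1% of all genes tested. The median difference was -0.08 over the 39 genes and -0.02 over all genes, and the median size of a difference regardless of sign was 0.32 and 0.27. The median SE was larger over the 39 genes (0.28) than over all genes (0.16), so the lower share of calls does not show smaller differences. With replicate number as a block, 5 of the 39 passed: Cxcl1 and Cxcl13 higher, and Ccl17, Ccl25 and Ccl28 lower. In whole-gland RNA, fewer cells of a type and less RNA per cell cannot be told apart. Without the block, each p sets the difference between genotypes against the spread among dams of the same genotype.

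**Figure D1:**
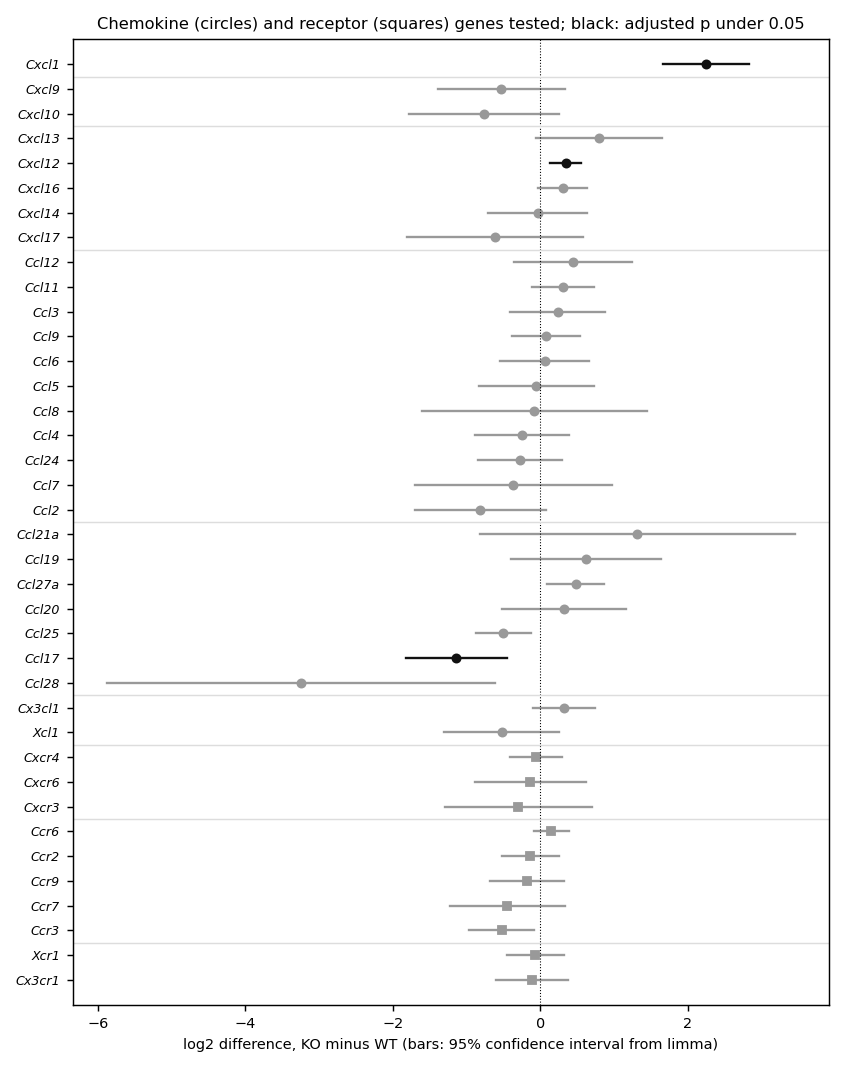
Difference in log2 signal (KO minus WT) for 38 of the 39 tested genes, grouped by role, with circles for ligands, squares for receptors and bars for the 95% confidence interval from limma (4 WT and 4 KO arrays). Cxcl1 and Cxcl12 (black) lie above 0 and Ccl17 (black) below it, the receptors lie between -0.52 and 0.15, and Ccl28 and Ccl21a have the widest intervals.

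Cxcl1, a ligand of Cxcr2 that draws neutrophils, had the smallest p of the 39 genes. Its signal was 6.69, 6.57, 6.40 and 7.64 in the WT glands and 8.92, 9.12, 9.27 and 8.95 in the KO glands. The KO arrays lay close together, WT4 stood above the other WT arrays, and the lowest KO array was still 1.28 above WT4. The means were 6.83 ± 0.56 and 9.07 ± 0.16 (SD, n = 4 each), a difference of 2.24 (SE 0.26, 95% confidence interval 1.66 to 2.82) or 4.73-fold, with an adjusted p of 0.00417. Cxcl1 passed under each of the 16 other settings tried, with differences between 1.72 and 2.51 and adjusted p between 0.000337 and 0.0218.

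No other ligand of the Cxcr2 group could be shown to differ. Ppbp, the platelet ligand of Cxcr2 whose symbol falls outside the rule, was well above background on all 8 arrays, with a difference of 0.09 (SE 0.41, adjusted p = 0.885). The Cxcl2 and Cxcl3 probes were each well above background on a single array, WT1, where they read 4.99 and 3.78. On the other 7 arrays Cxcl2 lay between 1.46 and 2.98 and Cxcl3 between 1.49 and 3.38. Of the 3 genes whose printed promoters share GGAATTTCC, Cxcl1 was thus the only one detected on more than 1 array. Cxcl5 was well above background on no array. Cxcl15, known as a lung chemokine, was detected on 3 WT and 3 KO arrays and was not tested, with the brighter of its probes reading 4.46, 5.31, 5.10 and 3.35 in WT and 3.58, 6.33, 5.72 and 4.49 in KO glands.

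The receptors of this group were also dim. Cxcr1 was well above background on no array. Cxcr2 was detected on WT1, WT4, KO1 and KO4, so it was not tested. Its brighter probe read 3.37, 2.19, 3.29 and 4.63 in WT and 4.13, 3.18, 3.48 and 4.16 in KO glands, and the genotypes overlapped. The RNA of both receptors was thus at or near background in either genotype.

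Of a list of 12 marker genes of neutrophils, the cells that carry Cxcr2, 9 were tested and 3 rose: Camp, which encodes an antimicrobial peptide (at least 8.54-fold higher, adjusted p = 0.0003), Ngp, a granule protein gene (at least 7.11-fold higher, adjusted p = 0.0045), and Ltf (1.31, adjusted p = 0.0066). Of all genes tested 7.53% were called higher. Camp and Ngp were not well above background on any WT array and entered the test only through the KO arrays where they are high. Their adjusted p therefore rests on WT signals not well above background, and the count of 3 is no support for a rise of the list. Ltf is also a milk protein of the epithelium. The mean log2 signal over the 9 genes ranged from 6.86 to 7.57 in WT and from 8.46 to 9.41 in KO glands, a gap to which Camp and Ngp contribute because they were tested only through the KO arrays. Without these 2 genes, a choice made after the data were seen, the mean ranged from 8.07 to 9.07 in WT and from 9.21 to 9.98 in KO glands. That mean still holds Ltf, the brightest gene of the list. Of the genes left in it, only Ltf and S100a9 had arrays that did not overlap, so the gap is no trait of neutrophil genes as a set. Csf3r, the receptor of the neutrophil growth factor, differed by 0.08 (adjusted p = 0.861), S100a9 by 2.19 (adjusted p = 0.0566, and 0.0459 with the replicate block), S100a8 by 0.49 (adjusted p = 0.357), Retnlg by 1.09 (adjusted p = 0.205), Mpo by 0.24 (adjusted p = 0.524) and Cd177 by -0.18 (adjusted p = 0.702). Elane was not well above background on any array, and Ly6g had no probe. The part of these cells in the Cxcl1 difference was not tested.

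Cxcl12, made by stromal and endothelial cells and the ligand of Cxcr4, rose by a small amount. Its signal was 11.41, 11.35, 11.32 and 11.33 in the WT glands and 11.82, 11.58, 11.73 and 11.65 in the KO glands. The WT arrays spanned a range so narrow that every KO array lay above all of them. The difference was 0.34 (SE 0.09), or 1.27-fold, with an adjusted p of 0.0388. This call was close to the threshold: it was lost with the replicate block (adjusted p = 0.0568), with the mean of both probes (0.109) and on leaving out any 1 of the arrays other than WT1 (0.0526 to 0.106), although the difference stayed between 0.30 and 0.38 throughout. A second Cxcl12 probe, designed on another transcript of the gene, read 9.82, 9.56, 9.79 and 9.46 in WT and 10.38, 10.05, 9.84 and 9.52 in KO glands, a difference of 0.29 with overlapping arrays (adjusted p = 0.294 over all probes).

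Cxcr4 itself differed by -0.06 (SE 0.16, adjusted p = 0.801), with a 95% confidence interval of -0.42 to 0.29. The atypical receptor Ackr3, which takes up Cxcl12 without G protein signalling, differed by 0.41 (SE 0.23, adjusted p = 0.219). The fibroblast markers moved the same way as Cxcl12. All 6 of Pdgfra, Pdgfrb, Col1a1, Col1a2, Dcn and Lum were higher on average in the KO glands by 0.33 to 0.57, of which Dcn alone passed (0.50, adjusted p = 0.0257), with Col1a1 (0.54, adjusted p = 0.0893) passing under the replicate block (0.0342), and their mean ranged from 13.03 to 13.25 in WT and from 13.35 to 13.86 in KO glands. The 6 blood endothelial markers ranged from 10.19 to 10.31 in WT and from 10.01 to 10.40 in KO glands, with none passing. The part of stromal cell number in the Cxcl12 difference was not tested.

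Ccl17, a product of dendritic cells that attracts Ccr4-bearing T cells, was the 1 member that fell. It read 7.37, 6.86, 6.83 and 6.26 in the WT glands and 6.35, 5.13, 5.79 and 5.51 in the KO glands. KO1 lay just above WT4, the only overlap, and in each of the 4 numbered pairs the KO array was the lower, by 0.75 to 1.73. The signal fell by 1.14 on the log2 scale (SE 0.30), or 2.20-fold, with an adjusted p of 0.037. With the replicate block the adjusted p was 0.0179. The call was lost on leaving out WT1, WT2, WT3, KO2, KO3 or KO4 (0.0549 to 0.0919), by the methods' t-test (0.0824) and when dim probes were kept (0.0572), and normexp background correction took the difference to -0.65 (adjusted p = 0.0321).

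Ccl22, the other ligand of Ccr4, was well above background on WT1 only, and the Ccr4 probes on no array. Of 6 dendritic cell markers 3 were tested and none passed: Flt3 differed by -0.46 (adjusted p = 0.0789), Zbtb46 by -0.42 (adjusted p = 0.118) and Itgax by -0.20 (adjusted p = 0.405). Their mean ranged from 6.83 to 7.33 in WT and from 6.48 to 6.80 in KO glands. Th-POK is required for the CD4 T cell lineage. Of 7 T cell markers tested Cd4 fell by 0.43 (adjusted p = 0.0403, and 0.0596 with the replicate block) and Cd3e fell by 0.60 (adjusted p = 0.0369). Of all genes tested 8.96% were called lower. The Cd4 probe was dim, at 4.49 to 4.97 in WT and 4.26 to 4.37 in KO glands, though well above background on every array. The mean of the T cell list ranged from 7.19 to 8.32 in WT and from 7.30 to 7.63 in KO glands. The part of either cell type in the Ccl17 difference was not tested.

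**Figure D2:**
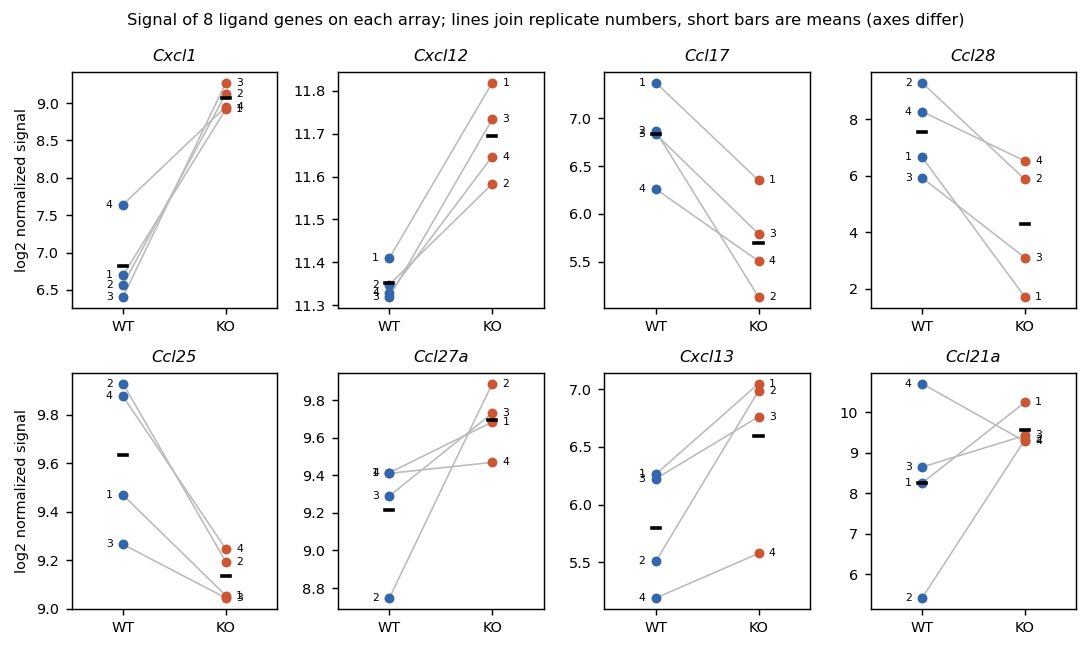
Log2 normalized signal of 8 ligand genes on each array (blue WT, red KO; numbers are replicate numbers, grey lines join them and short bars are genotype means), each panel with its own axis. For Cxcl1 all KO points lie from 8.92 to 9.27 and all WT points from 6.40 to 7.64, for Ccl17 and Ccl28 every line falls, and for Ccl21a the WT points run from 5.41 to 10.71.

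Ccl28 had a wide mean difference and did not pass. It is an epithelial chemokine known for bringing IgA plasma cells, which carry Ccr10, into the lactating gland. Its signal was 6.66, 9.30, 5.93 and 8.28 in the WT glands and 1.70, 5.87, 3.10 and 6.52 in the KO glands, and the probe was not well above background on KO1 and KO3. Both genotypes spread widely, and KO4 lay above WT3. Each KO array was below the WT array of its number, by 1.75 to 4.96. The difference was -3.24 (SE 1.15, 95% confidence interval -5.87 to -0.61) with an adjusted p of 0.083, it passed with the replicate block (adjusted p = 0.0171) and without KO4 (-3.99, adjusted p = 0.0488), and it was -1.47 after normexp background correction.

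Ccr10 was well above background on no array. None of 4 plasma cell markers passed: Jchain, the joining chain of secreted IgA, differed by 0.04 (adjusted p = 0.947) and Mzb1 by -0.21 (adjusted p = 0.756), and the mean of the 4 ranged from 9.11 to 9.81 in WT and from 9.24 to 9.75 in KO glands. Ccl27a, the other ligand of Ccr10, read 9.41, 8.75, 9.29 and 9.41 in WT and 9.68, 9.89, 9.73 and 9.47 in KO glands. These arrays did not overlap, though by only 0.06, and the difference of 0.48 (SE 0.17) had an adjusted p of 0.0849. Ccl27a and Ccl21a each have near-identical gene copies, so their probes may read more than 1 gene.

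Ccl25, the ligand of Ccr9 and known from thymus and gut, read 9.47, 9.93, 9.27 and 9.88 in WT and 9.05, 9.19, 9.04 and 9.25 in KO glands. The genotypes were separated by 0.02. The difference of -0.50 (SE 0.16) had an adjusted p of 0.0642, which was 0.0436 with the replicate block and 0.0475 without WT3. A second, dimmer Ccl25 probe differed by -0.16 and its arrays overlapped (adjusted p = 0.717 over all probes). Ccr9 differed by -0.18 (adjusted p = 0.579).

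The lymphoid homing ligands Ccl19 and Ccl21a, which bind Ccr7 on dendritic cells and naive lymphocytes, varied greatly from dam to dam. Ccl21a read 8.25, 5.41, 8.64 and 10.71 in WT and 10.24, 9.32, 9.42 and 9.28 in KO glands. The WT arrays alone spread on both sides of all KO arrays, and the difference of 1.31 (SE 0.94) had an adjusted p of 0.341. It was 0.37 without WT2 and 2.13 without WT4, neither passing. Ccl19 read 7.95, 9.05, 8.30 and 7.76 in WT and 10.05, 8.89, 8.66 and 7.93 in KO glands, a difference of 0.62 (adjusted p = 0.35), which was 0.23 without KO1. Of the lymphatic endothelial markers, whose cells make Ccl21, Lyve1 differed by 0.17 (adjusted p = 0.684) and Pdpn by 0.26 (adjusted p = 0.439). Ccr7 differed by -0.45 (SE 0.34, adjusted p = 0.375). Cxcl13, which brings Cxcr5-bearing B cells to follicles, read 6.26, 5.51, 6.22 and 5.19 in WT and 7.05, 6.99, 6.76 and 5.58 in KO glands. It was the higher in KO in 4 of 4 numbered pairs, with a difference of 0.80 (SE 0.37) and an adjusted p of 0.159, of 0.0439 with the replicate block and of 0.036 without KO4. Cxcr5 was well above background on 1 WT array only. Of 4 B cell markers tested 1, Cd79b, rose (1.05, adjusted p = 0.0403, and 0.0744 with the block), while Cd79a differed by -0.72 (adjusted p = 0.0511) and Ms4a1 by 0.28 (adjusted p = 0.248). Ccl20, the ligand of Ccr6, differed by 0.32 (adjusted p = 0.561) and Ccr6 by 0.15 (adjusted p = 0.32).

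None of the 11 CC ligands of monocytes, macrophages and eosinophils passed (limma), and none had an unadjusted p under 0.05 or passed by the methods' t-test. Their differences ranged from -0.81 to 0.45, with 5 higher and 6 lower on average in the KO glands. Ccl2, the main ligand of Ccr2 on monocytes, read 9.49, 9.79, 8.74 and 8.59 in WT and 9.31, 8.08, 8.30 and 7.67 in KO glands. It was the lower in KO in 4 of 4 numbered pairs, but the arrays overlapped and the difference of -0.81 (SE 0.39) had an adjusted p of 0.167. Ccl12, another Ccr2 ligand, differed in the opposite direction by 0.45 (SE 0.35, adjusted p = 0.388). Ccl7 and Ccl8 spread the most, with SDs of 0.92 in WT and 1.03 in KO glands for Ccl7 and of 0.80 and 1.36 for Ccl8.

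None of Ccl3, Ccl4 and Ccl5, products of macrophages and T cells, passed. Ccl3 differed by 0.24 (SE 0.28), Ccl4 by -0.25 (SE 0.28) and Ccl5 by -0.05 (SE 0.34), with adjusted p of 0.577, 0.554 and 0.924. Ccl6 and Ccl9, macrophage chemokines of rodents, differed by 0.06 and 0.07. Of the eosinophil ligands, Ccl11 (eotaxin) read 10.18, 9.49, 9.45 and 9.55 in WT and 10.17, 9.81, 10.11 and 9.80 in KO glands, so that WT1 alone of the WT arrays reached the KO range. Its difference of 0.31 (SE 0.18) had an adjusted p of 0.263, and of 0.04 without WT1, where the difference was 0.48. Ccl24 differed by -0.27 (adjusted p = 0.465). The macrophage markers overlapped, with a mean over 11 genes of 9.93 to 10.31 in WT and 9.85 to 10.58 in KO glands.

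Cxcl9 and Cxcl10, which interferon induces and which attract Cxcr3-bearing T and NK cells, were lower on average in the KO glands without passing. Cxcl9 read 9.45, 10.63, 11.01 and 9.53 in WT and 9.73, 10.15, 9.29 and 9.34 in KO glands, a difference of -0.53 (SE 0.38, adjusted p = 0.343). Cxcl10 read 7.95, 9.35, 9.25 and 7.81 in WT and 8.72, 7.67, 7.78 and 7.15 in KO glands, a difference of -0.76 (SE 0.45, adjusted p = 0.252). In both, WT2 and WT3 stood above WT1 and WT4. The same arrays were the highest WT arrays for Cxcr3 (8.50 and 9.22, against 7.65 and 6.99), Cxcr6 (8.50 and 9.37), Ccl5 (12.94 and 13.09) and the C chemokine Xcl1 (7.37 and 7.44), a product of T and NK cells. They were also the highest for the mean of the 7 T cell markers, at 8.25 and 8.32 against 7.31 and 7.19 on WT1 and WT4. The mean of the 4 NK cell markers tested was 6.44 and 6.76 on WT2 and WT3, against 6.12 and 6.18 on WT1 and WT4. Between the genotypes that NK cell mean was higher in KO glands by 0.31 (6.62 to 6.74). Ncr1 alone of the 4 passed (0.72, limma, adjusted p = 0.0367), and it was tested only through the KO arrays, being detected on 2 WT arrays. No KO array reached WT3 for Cxcl9, Cxcr3, Cxcr6, Ccl5 or Xcl1. This pattern was seen after the values were known and lies within the WT group.

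**Figure D3:**
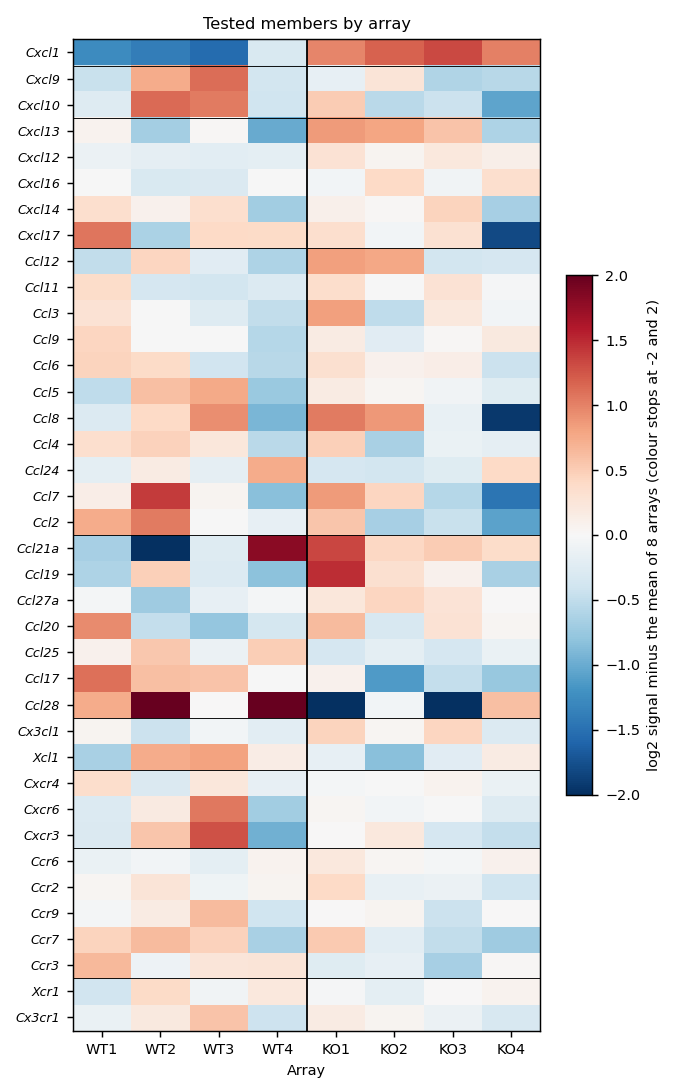
Log2 normalized signal of 38 of the 39 tested genes on the 8 arrays, each gene shown as its difference from its own mean over the 8 arrays (red above, blue below, colour limited at -2 and 2). The Cxcl1 row changes colour between the genotypes, while WT2 and WT3 are red for Cxcl9, Cxcl10, Cxcr3, Cxcr6 and Ccl5, and KO1 is the reddest of the KO arrays in most rows.

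The remaining ligands did not pass. Cxcl16, a membrane-bound ligand of Cxcr6, differed by 0.30 (SE 0.15, adjusted p = 0.173). Cx3cl1, the membrane-bound ligand of Cx3cr1, differed by 0.32 (SE 0.19, adjusted p = 0.243). Cxcl14, an epithelial and stromal chemokine, ranged from 13.74 to 14.77 in WT and from 13.76 to 14.88 in KO glands, a difference of -0.04 (SE 0.29). Cxcl17 differed by -0.61 (SE 0.52), with KO4 at 7.93 well below the other KO arrays at 9.67 to 10.06. Xcl1 differed by -0.53 (SE 0.34, adjusted p = 0.299).

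No receptor gene passed (limma, 0 of 11, with 1 at an unadjusted p under 0.05 and 0 by the methods' t-test or with the replicate block). On average 10 of the 11 were lower in the KO glands, against 7406 of the 14137 genes tested, and the median difference was -0.14. Ccr3, the eosinophil receptor for Ccl11 and Ccl24, was nearest to the threshold. It read 6.31, 5.57, 5.90 and 5.92 in WT and 5.42, 5.50, 4.999 and 5.69 in KO glands, a difference of -0.52 (SE 0.19, adjusted p = 0.091), and was lower in 4 of 4 numbered pairs. Of 6 eosinophil and mast cell markers 3 were tested and none passed, with means of 7.73 to 8.43 in WT and 8.12 to 8.56 in KO glands, and the eosinophil marker Epx was well above background on 1 WT array only. Ccr2 differed by -0.13 (SE 0.17), Cxcr3 by -0.30 (SE 0.44), Cxcr6 by -0.14 (SE 0.33), Xcr1 by -0.07 (SE 0.17) and Cx3cr1 by -0.11 (SE 0.21).

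For 2 receptors the probes disagreed. A dimmer Cx3cr1 probe, detected on all WT arrays and on 2 KO arrays, read 4.18, 4.99, 4.70 and 4.65 in WT and 4.30, 4.01, 3.48 and 3.66 in KO glands, a difference of -0.77 (adjusted p = 0.0496 over all probes). The brighter probe, which stands for the gene, read 7.53, 7.85, 8.24 and 7.25 in WT and 7.83, 7.72, 7.54 and 7.35 in KO glands. A dimmer Ccr2 probe differed by 0.28 against -0.13 for the brighter. Receptor signals spread more among WT than KO dams, with the larger SD in WT for 10 of the 11 receptors, against 58.6% of all genes tested and 24 of the 39 genes here.

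Beyond the genotype, the family varied more from dam to dam than most genes. The median SD over the 39 genes was 0.47 in WT and 0.34 in KO glands, against 0.23 and 0.19 over all genes tested. KO1 was the highest KO array for 24 of the 39 genes, against 24.8% of all genes tested, KO4 was the lowest KO array for 21, against 30.3%, and WT4 the lowest WT array for 20, against 29.3%. The leukocyte markers (8 genes, Ptprc among them) followed a similar order among the KO arrays, with means of 10.58 on KO1, 10.39 on KO2, 10.14 on KO3 and 9.84 on KO4, and were lowest on WT4 (10.13) among the WT arrays. The part of leukocyte content in this spread was not tested. The spread limits what can be said of genes that did not pass. For 21 of the 36 genes that missed the threshold the 95% confidence interval lay within 2-fold in either direction. Over all genes tested this held for 9626 of the 11806 that missed it.

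**Figure D4:**
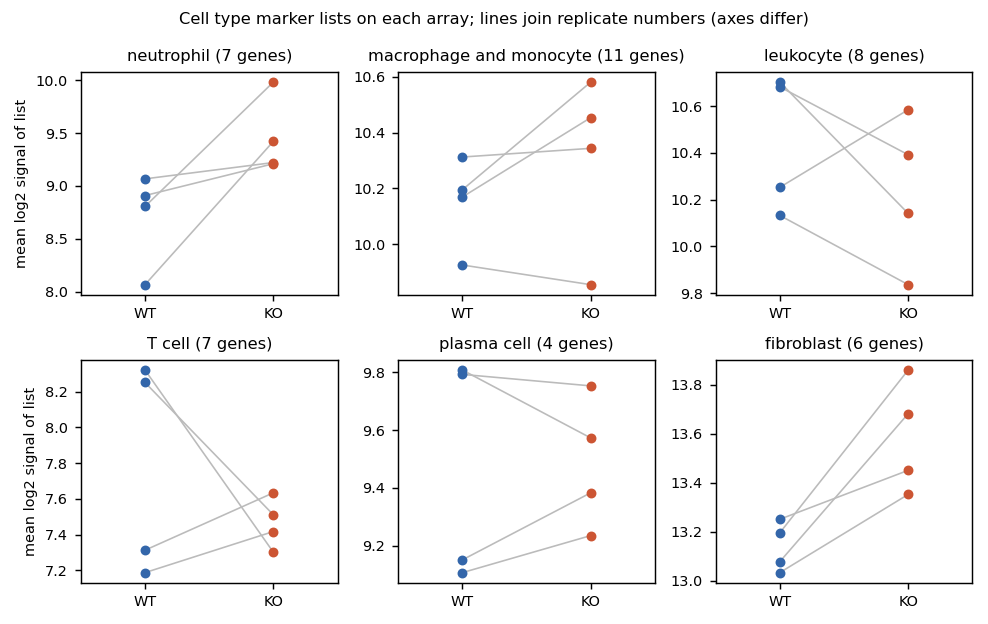
Mean log2 signal of 6 cell type marker lists on each array, over tested genes well above background on at least 1 array of each genotype, which leaves out Camp and Ngp (blue WT, red KO; lines join replicate numbers), each panel with its own axis. The neutrophil means run from 8.07 to 9.07 in WT and from 9.21 to 9.98 in KO glands and the fibroblast means from 13.03 to 13.25 and from 13.35 to 13.86, without overlap, while the macrophage, leukocyte, T cell and plasma cell means overlap. The neutrophil list shown includes Ltf, which is also a milk protein of the epithelium, and only Ltf and S100a9 of its genes did not overlap.

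Genes that act with the chemokines were tested from 5 lists outside the symbol rule. Of 92 genes tested, 8 passed and all 8 were higher in the KO glands, which is 8.70%, against 7.53% of all genes tested called higher and 16.5% in either direction. Of 9 atypical receptors and chemokines with other names, all were higher on average and Rarres2, which encodes the chemoattractant chemerin, rose (0.54, adjusted p = 0.0411). Ackr2, a scavenger of inflammatory CC chemokines, differed by 0.49 (adjusted p = 0.202) and Ackr1, the erythrocyte and venule chemokine receptor, by 0.19 (adjusted p = 0.464).

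Among 34 genes of receptor signalling 2 rose: Arrb1, which encodes a beta-arrestin that uncouples and internalises receptors (0.88, adjusted p = 0.0139), and Ptk2b, a kinase downstream of receptor calcium signals (0.50, adjusted p = 0.0346, and 0.0604 with the replicate block). Prkcd differed by 0.47 (adjusted p = 0.0521) and Rac2, the Rac GTPase of blood cells, by -0.66 (adjusted p = 0.0622). Among 11 genes of chemokine proteolysis and presentation, Mmp12, a macrophage elastase that clips chemokines, rose (0.71, adjusted p = 0.0385). Mmp2 differed by 0.54 (adjusted p = 0.0801, and 0.0334 with the replicate block).

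Upstream of the ligands, 1 of 18 cytokine and cytokine receptor genes passed. Il1r1, the signalling receptor of interleukin-1, rose (0.64, adjusted p = 0.0315). Tnf differed by 0.52 (adjusted p = 0.0633, and 0.023 with the replicate block), Tlr4 by 0.73 (adjusted p = 0.0763), Il17rc by -0.31 (adjusted p = 0.0576) and Il1b by -0.67 (adjusted p = 0.0847, and 0.0492 with the block). None of Tnf, Tlr4, Il17rc and Il1b passed without the block, and their signs differed. Il1a, Il17a and Ifnb1 were well above background on no array and Il6 on KO1 only. Of 20 transcription factors of chemokine genes 3 rose: Cebpd (1.32, adjusted p = 0.0122), Rela, the NF-kappaB subunit p65 (0.71, adjusted p = 0.0143), and Jun (1.26, adjusted p = 0.0374, and 0.0702 with the block). Other NF-kappaB genes of the list did not pass. Relb differed by 0.69 (adjusted p = 0.211), Nfkb2 by 0.12 (0.845), Bcl3 by 0.72 (0.153), Nfkbia by 0.03 (0.913) and Nfkbiz by 0.0035 (0.992). The part of kappaB motifs in the Cxcl1 difference was not tested. Stat3 differed by 0.73 (adjusted p = 0.0755, and 0.0268 with the block).

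Of the 14 genes that were not tested, Cxcl15 was well above background on 6 arrays, Cxcr2 on 4 and the rest on 1 or none. Ccl1, Ccr1, Ccr4, Ccr10, Cxcl5 and Cxcr1 were well above background on no array. Ccl22, Ccr8, Cxcl2 and Cxcl3 were so on WT1 only, Ccr1l1 on WT2 only and Cxcr5 on 1 WT array. No gene of the 14 was well above background on a KO array except Cxcl15 and Cxcr2. Another 10 genes of the gene table had no probe matched to them here: Ccl16-ps, Ccl19-ps1, Ccl19-ps2, Ccl19-ps3, Ccl21b, Ccl21c, Ccl21d, Ccl26, Ccl27b and Cxcl11.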

How the data were processed

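RNA from No. 4 mammary glands was measured on 8 one-colour Agilent arrays (4x44K mouse design), 4 WT and 4 KO, grouped by the sample titles. The authors deposited the scanner output of Agilent Feature Extraction 10.7 for each array, whose processed intensity is background-subtracted and not scaled between arrays. They also deposited a table of log2 values, quantile-normalized in GeneSpring per the study's methods. Its columns had medians of 6.33 and correlated with the log2 values computed here at r above 0.99, so that its scale is log2 and it is not centred by gene. It served as an alternative.

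After removal of control spots, the processed intensities were log2-transformed and quantile-normalized (R 4.3.3, limma 3.58.1). Outlier spots by the software's marks (64 to 100 per array) were dropped, no spot was saturated, and the remaining spots were averaged to 41174 probes. Accessions were matched to symbols in a RefSeq table of GRCm38.p6 (27479 probes matched 18749 genes). The scanner output names build mm9, so no array coordinates are printed, and promoter coordinates are those of the RefSeq table. A probe entered when well above background on all 4 arrays of a genotype (27735 probes), and the probe with the highest mean stood for its gene. The brighter Ccl7 probe was left out because a marked spot left KO2 without a value. All 14137 genes were fitted together with limma and adjusted by Benjamini-Hochberg, and the steps were tested on simulated data. A fold for a gene not well above background in a genotype is a lower limit: the bright mean against, per dim array, the higher of the probe's own signal and the lowest signal of probes well above background. The number of arrays limits the precision.

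Samples of the same replicate number deviated together (r = 0.22, 0.16, 0.30 and 0.28), so the replicate block is given where it changes the call of a gene printed with its p. The mean r for different numbers was -0.08, a value largely fixed by centring each gene within its genotype, and so no separate comparison. What the numbers mark is not given in the sources used here. Alternatives were scaling to the 75th percentile, normexp (offset 50, on median spot and background signals, since no mean signal column was present), the authors' table, other filters, the mean of probes, the block, the methods' t-test and leaving out each array. Given in full were members that passed, whose genotypes did not overlap or that differed by at least 1 on the log2 scale, with their partners. Others were given by range or, where named, chosen after their values were seen. Of each pathway list up to 4 genes of smallest p were named, besides some chosen after their values were seen. Some genes counted among the members and lists are not reported here by name. Members and lists were chosen with earlier results of these data known.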

Additional observations from a re-analysis of the deposited data

Results flagged for a closer look

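In 4 of 78 sets of 4 arrays (39 genes in 2 genotypes) 1 array lay far from the other 3, and chance alone gives about 1 in 20. Ccl11 read 10.18 on WT1, with the other WT arrays between 9.45 and 9.55. Ccl21a read 10.24 on KO1, with the other KO arrays between 9.28 and 9.42. Ccr7 read 4.74 on WT4, with the other WT arrays between 5.83 and 6.01. Ccr9 read 4.48 on KO3, with the other KO arrays between 4.91 and 4.97. None of the 4 genes passed the test with all 8 arrays, and Ccl11 passed without WT1.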

How the results depend on the processing

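Cxcl1 passed under all 16 alternatives and Zbtb7b under all 15 that could give its value. The count of chemokine and receptor genes that passed, 3 with 2 higher and 1 lower, was 5 with the replicate block (2 higher, 3 lower). Without single arrays the count ranged from 1 to 3, with 1 to 3 higher and 0 to 1 lower. The mean of probes left 1 higher, and no gene was lower with the methods' t-test or with no filter on dim probes (0 in each). Of the other pathway genes, 8 higher and 0 lower became 3 higher and 1 lower by the methods' t-test, with 1 lower also by 75th percentile scaling and by the block, and 3 to 11 higher with 0 to 1 lower without single arrays. All genes called numbered 2331, 1389 by the methods' t-test, 2762 with the block and 515 to 3070 without single arrays; 4765 had an unadjusted p under 0.05 by the t-test. The causes were not tested, and leaving out an array also leaves fewer arrays to test with.

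Signs turned only for genes that had not passed: Ccl6 was -0.019 by 75th percentile scaling, Ccr9 0.0068 by normexp and Ccr2 0.073 by the mean of probes. Without single arrays Ccl5 ranged from -0.31 to 0.19, Ccl6 from -0.11 to 0.22, Ccl7 from -0.71 to 0.054, Ccl8 from -0.44 to 0.55, Ccl9 from -0.10 to 0.23, Cxcl14 from -0.27 to 0.18, Cxcr3 from -0.66 to 0.079, Cxcr4 from -0.17 to 0.046, Cxcr6 from -0.39 to 0.19, Cx3cr1 from -0.27 to 0.064 and Xcr1 from -0.21 to 0.046. The replicate block changed the calls of Cxcl12, Ccl25, Ccl28 and Cxcl13 and of no other gene of the family. Zbtb7b, Ccl28 and Ccl20 have no value where all 8 arrays must be well above background. Dim probes limit Ccl28, and of 19 receptor genes with a probe only 11 were bright enough to be tested.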
